A study of Mus musculus with 2 samples.

Results

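Linker histone H1 genes and replacement histone genes were followed across the cell classes of pancreatic islets from NOD mice, which develop autoimmune diabetes spontaneously. The set comprised 7 of the 32285 genes in the count matrices, taken by symbol: H1f0, Hist1h1c, Hist1h1d and Hist1h1e of the H1 family, H3f3a and H3f3b, which both encode the histone variant H3.3, and H2afz, which encodes the variant H2A.Z. The study was of islet cells from mice fed HAMSAB and from mice fed HAMS. Both groups were NOD mice that were 5 weeks old when the diet began and stayed on it for 5 weeks. The labels give only the diet names. HAMS is known as a high-amylose maize starch and HAMSAB as the same starch carrying acetate and butyrate, so the starch was common to both groups. There was 1 droplet-based 3′ single-cell library for each diet, and the number of mice behind a library is not given in the sources used here. With 1 library per diet no test between diets was possible, and every interval below covers counting error only. A difference between the diets therefore cannot be told apart from a difference between these 2 libraries.

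H1 histones bind the linker DNA where it enters and leaves the nucleosome and compact chromatin. H1f0 encodes H1.0, a replacement H1 that accumulates in cells that have stopped dividing. Hist1h1c, Hist1h1d and Hist1h1e encode H1.2, H1.3 and H1.4, and lie in the large histone gene cluster whose genes are mainly transcribed during DNA replication. H3.3 and H2A.Z are placed into nucleosomes outside replication by dedicated chaperones and remodelling complexes. Butyrate inhibits histone deacetylases, and H1f0 is among the genes known to respond to it in cultured cells.

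The promoters of the 3 clustered H1 genes are shown because they share a layout not found in the stretch searched around the H1f0 start. Bases farther upstream were not searched. Hist1h1c lies at chr13:23738808-23740367 on the plus strand, Hist1h1d at chr13:23553262-23560686 on the plus strand and Hist1h1e at chr13:23620629-23622558 on the minus strand (GENCODE vM21, GRCm38), while H1f0 lies apart at chr15:79028450-79030504. The gene of H3f3a is on chromosome 1, that of H3f3b on 11 and that of H2afz on 3. All 7 genes matched an entry of the RefSeq promoter table (GRCm38.p6), which gives 250 bases before and 50 after each start. The stretches run 5′ to 3′ in the direction of the gene, and the capitals mark the H1 box AAACACA and the CCAAT box. Those of Hist1h1c and Hist1h1e end at the base before the RefSeq start, which for Hist1h1c differs from the GENCODE start above. That of Hist1h1d is cut to the surroundings of its H1 box, because the GENCODE transcript of this gene begins farther upstream. Distances are counted from the RefSeq start.
Hist1h1c, chr13:23738685-23738806, plus strand: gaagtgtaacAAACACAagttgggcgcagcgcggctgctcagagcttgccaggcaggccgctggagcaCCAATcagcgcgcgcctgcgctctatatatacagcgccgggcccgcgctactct
Hist1h1e, chr13:23622559-23622683, minus strand: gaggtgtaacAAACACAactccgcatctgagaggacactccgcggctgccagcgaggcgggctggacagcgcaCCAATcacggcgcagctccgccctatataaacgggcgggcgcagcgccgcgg
Hist1h1d, chr13:23554899-23554928, plus strand: tgaggggcaacAAACACAgccacaaggcaa
The H1 box began 112 bases before the start of Hist1h1c, 122 before that of Hist1h1d and 115 before that of Hist1h1e, and a CCAAT box followed 54, 51 and 52 bases before the start in the same order. On either strand AAACACA was present in 7.18% of all 32851 promoter windows, CCAAT in 37.4% and both in 2.67%. The H1f0 window held neither, and that of H3f3a had both on the reverse strand. The H3f3b window had CCAAT 4 times, a number reached or exceeded in 1.06% of windows.

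The transcripts of the same 3 genes also carry the histone stem-loop, the hairpin by which replication-dependent histone messages are processed in place of a poly(A) tail. It was found in these 3 genes and in none of the other 4. Among 21877 protein-coding genes of GENCODE vM21 (GRCm38) 98 genes, or 0.448%, had it. The sites are printed with 4 bases before and 6 after, and the capitals mark the stem and loop.
Hist1h1c, stem-loop: aaaaGGCTCTTTTCAGAGCCaccact
Hist1h1d, stem-loop: aaacGGCTCTTTTCAGAGCCacccac
Hist1h1e, stem-loop: caaaGGCTCTTTTCAGAGCCacccac
The annotated transcripts ran on for 840 bases after the site in Hist1h1c, 4884 in Hist1h1d and 1153 in Hist1h1e. The library kit primes on poly(A), so counts of these genes come from molecules extended past the hairpin or primed within the transcript, and their levels need not follow the total message. The Hist1h1e exons overlap those of Hist1h2be and Gm11398 on the same strand, and how reads in the overlap were assigned is not given in the sources used here. H3f3a, H3f3b and H2afz have processed pseudogenes, and reads shared with these were not traced.

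The HAMSAB library held 5022 barcodes with 4254040 UMIs (unique molecules) in all, and the HAMS library 4352 barcodes with 3599756 UMIs. After cells with under 200 genes or over 20% mitochondrial UMIs were removed, 4628 HAMSAB and 4185 HAMS cells remained, with medians of 705 and 704 UMIs per cell, and 6 of the deposited barcodes were common to both libraries. The cells were clustered without any histone gene and named from marker lists, which gave 12 classes with at least 20 cells in each library. One cluster had Ppy, Gcg, Irx2 and Ttr among its 10 leading genes, markers of gamma and alpha cells, and is called Gcg/Ppy-led. The largest cluster was led by Ifitm1 and Il1r2 and had no dendritic cell marker among its 10 leading genes, so it is called Il1r2-led. Levels are given as CPM, a gene's UMIs over all UMIs of its class in 1 library, scaled to 1e6. The endothelial-like class was also led by the collagen gene Col1a1, with summed markers of stellate cells at 8832 CPM in HAMSAB and 728 CPM in HAMS cells. In every class the neutrophil markers S100a8, S100a9 and Retnlg and the mast cell markers Cpa3, Mcpt4 and Tpsb2 were at 0. Kit, the remaining gene of the 4 mast cell markers, was seen in all classes but plasma-like. It had 221 CPM in HAMSAB and 216 CPM in HAMS Il1r2-led cells, and 195 CPM in HAMSAB and 186 CPM in HAMS cDC-like cells.

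A kit that counts 3′ ends is not meant to give more counts to a longer transcript, and CPM was not scaled by length. Counts primed within a transcript, possible for the 3 stem-loop genes, need not follow this, and their part was not tested. Of the 84 pairs of gene and class, 59 had at least 20 UMIs over both libraries, 20 had 1 to 19 and 5 had none. For the 42 pairs with at least 50 UMIs a ratio of 1.5-fold was called. In 14 of the 42 the gene passed it on the higher side in HAMSAB and in 1 on the lower side. Over all genes with at least 50 UMIs, 9.95% of gene and class pairs passed 1.5-fold on the higher side and 7.87% on the lower side. At a ratio of 2-fold, 4 of the 42 pairs were higher and none lower, beside 2% and 1.47% over all genes. The 95% interval of the ratio lay above 0 on the log2 scale in 13 of the 14 higher pairs. The median log2 ratio was 0.26 over the 42 pairs and 0.03 over all genes. The higher pairs came from H3f3b in 6 classes, H1f0 in 4, Hist1h1c in 3 and Hist1h1d in 1, while Hist1h1e, H3f3a and H2afz had none.

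**Figure D1:**
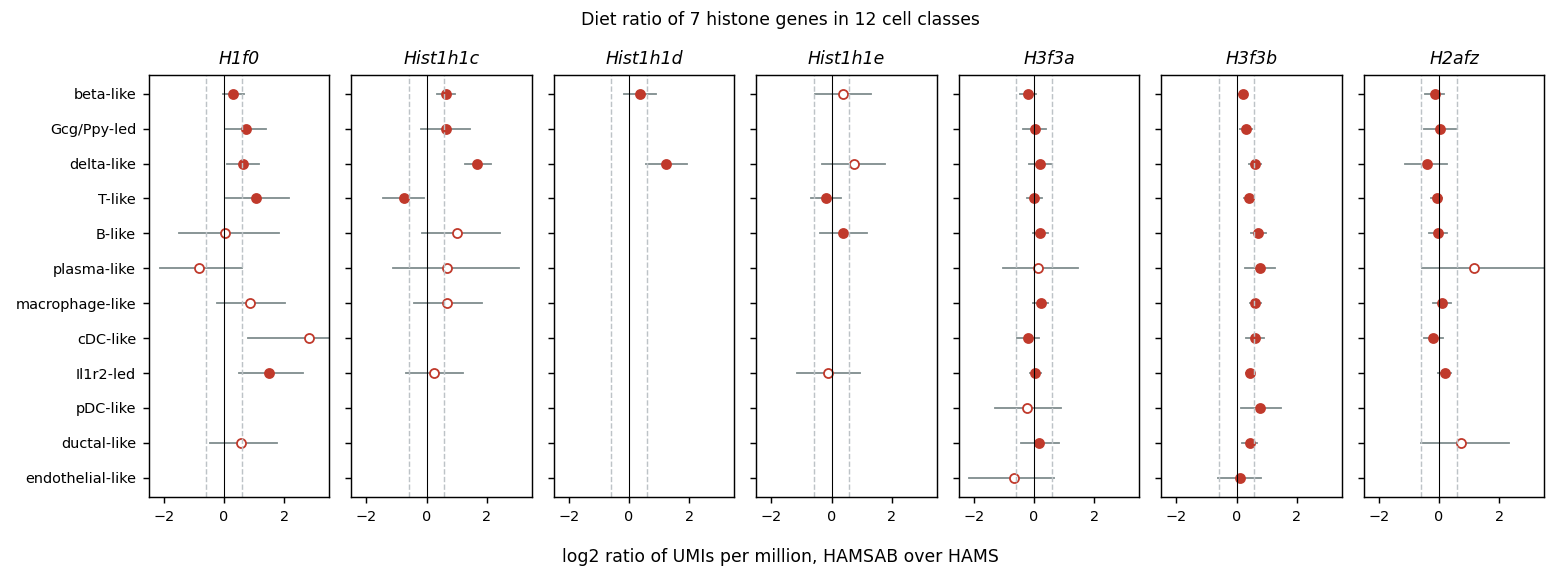
Log2 ratio of CPM, HAMSAB over HAMS, for each gene (panels) and cell class (rows) with at least 20 UMIs over both libraries; filled points have at least 50 UMIs, lines are exact 95% intervals for counting error (some run past the axis) and dashed lines mark 1.5-fold. H3f3b lay right of 0 in 12 of 12 classes (endothelial-like cells lie left of 0 when cells are weighted equally or cycling cells are left out), and the point farthest from 0 with at least 50 UMIs is Hist1h1c in delta-like cells at 1.69.

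The clearest difference was in delta-like cells, the somatostatin-secreting cells of the islet, where 4 of the 6 histone genes with enough counts were at least 1.5-fold higher in HAMSAB, against 9.79% of all 1818 genes measured in that class. The median log2 ratio of the 6 was 0.62, and that of all genes 0.08. Of the 5 delta markers, 3 were seen in at least 5% of these cells, Sst and Rbp4 were among the 10 leading genes and Lepr was at 0, and summed delta markers were 94926 CPM in HAMSAB and 108030 CPM in HAMS cells.

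Hist1h1c had 150 UMIs in 330 HAMSAB delta-like cells and 65 UMIs in 430 HAMS delta-like cells. That is 623 CPM in HAMSAB and 193 CPM in HAMS, a 3.23-fold ratio with a log2 value of 1.69 (95% interval 1.26 to 2.13). No other of the 1818 genes had a higher ratio in these cells. The gene was seen in 26.1% of HAMSAB cells and 11.9% of HAMS cells. More cells had several molecules as well: 15 HAMSAB cells and 2 HAMS cells had 3 or more UMIs, and the highest cell had 8 UMIs in HAMSAB and 4 in HAMS. When each cell was thinned to 500 UMIs, 49 of 218 HAMSAB cells (22.5%, exact interval 17.1 to 28.6) and 29 of 321 HAMS cells (9.03%, 6.13 to 12.7) had the gene. The lowest share among classes with the gene was in Il1r2-led cells, 2.61% of HAMSAB and 2.30% of HAMS cells at median depths of 625 and 682 UMIs, against 630.5 and 693 UMIs in delta-like cells.

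Hist1h1d followed the same pattern at a lower level. It had 52 UMIs in HAMSAB and 31 in HAMS delta-like cells, or 216 CPM in HAMSAB and 92.0 CPM in HAMS, with a log2 ratio of 1.23 (0.56 to 1.92) that was the fifth highest of the 1818. Cells carrying both Hist1h1c and Hist1h1d numbered 20 in HAMSAB and 4 in HAMS. H1f0 had 266 CPM in HAMSAB and 172 CPM in HAMS, a log2 ratio of 0.63 (0.09 to 1.16), and H3f3b had 1673 CPM in HAMSAB and 1098 CPM in HAMS, a log2 ratio of 0.61 (0.40 to 0.81). Hist1h1e had only 19 and 16 UMIs (log2 0.73, -0.31 to 1.79). H3f3a at 0.21 (-0.16 to 0.59) and H2afz at -0.41 (-1.12 to 0.26) did not differ beyond counting error. Summed over the 4 H1 genes, delta-like cells held 1183 CPM in HAMSAB and 505 CPM in HAMS (log2 1.23, 0.95 to 1.51), and 42.4% of HAMSAB and 28.6% of HAMS cells had at least 1 molecule of these 4 genes. The Hist1h1c and Hist1h1d ratios stayed past 1.5-fold under all 9 alternatives of processing, while that of H1f0 did so under 5 and that of H3f3b under 7. H1f0 was at 0.36 with each cell weighted equally, 0.49 with cells classed by their own markers, 0.58 at Leiden resolution 2 and 0.58 over a denominator without hormone, Actb, mitochondrial and ribosomal protein genes, and H3f3b at 0.38 with cells classed by their own markers and 0.56 over that denominator.

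**Figure D2:**
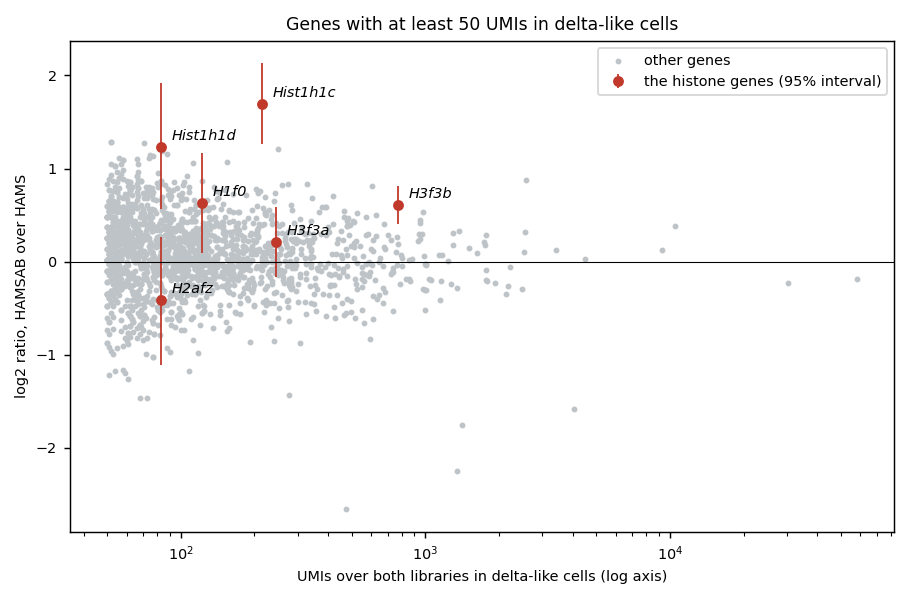
Each point is a gene with at least 50 UMIs in delta-like cells, placed by its UMIs over both libraries (log axis) and its log2 ratio of HAMSAB over HAMS; the histone genes are in red with exact 95% intervals. Hist1h1c at 1.69 is the highest of the 1818 genes, and Hist1h1d at 1.23 lies among the top 5.

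Other transcripts moved with this class too. Summed alpha markers in delta-like cells were 3508 CPM in HAMSAB and 10026 CPM in HAMS, beta markers 7148 CPM in HAMSAB and 8340 CPM in HAMS, and acinar markers 145 CPM in HAMSAB and 62.3 CPM in HAMS (Amy2a5 was at 0). The part of these RNAs in the histone ratios was not tested. Only 4 HAMSAB and 1 HAMS delta-like cells had at least 2 UMIs of the 8 mitotic genes used to mark cycling cells. The S phase and division list summed to 1129 CPM in HAMSAB and 1060 CPM in HAMS delta-like cells, and the core histone genes, the other genes of the clusters that replication switches on, to 266 CPM from 64 UMIs in HAMSAB and 154 CPM from 52 UMIs in HAMS.

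In beta-like cells Hist1h1c had 190 UMIs in HAMSAB and 182 UMIs in HAMS, or 257 CPM in HAMSAB and 164 CPM in HAMS, with a log2 ratio of 0.65 (0.35 to 0.95). It was the single one of 6 histone genes past 1.5-fold there, against 10.2% of all genes. This value moved with the makeup of the class: 1 beta-like cluster held 413 HAMSAB and 472 HAMS cells and the other 323 HAMSAB and 895 HAMS cells, and Hist1h1c was lower in the second. Within the first the log2 ratio was 0.44 (0.08 to 0.82) and within the second 0.37 (-0.25 to 0.97), both under 1.5-fold. It was also under 1.5-fold with each cell weighted equally (0.34), with cells thinned to 500 UMIs (0.57) and without the top 5% of cells by UMIs (0.53). Summed delta markers in beta-like cells were 826 CPM in HAMSAB and 3581 CPM in HAMS, alpha markers 1914 CPM in HAMSAB and 2919 CPM in HAMS, the gamma marker 20.3 CPM in HAMSAB and 147 CPM in HAMS and acinar markers 58.2 CPM in HAMSAB and 0.902 CPM in HAMS, beside beta markers at 148554 CPM in HAMSAB and 125761 CPM in HAMS, and their part in the ratio was not tested. H1f0 (0.30), Hist1h1d (0.37) and Hist1h1e (0.38) had ratios above 0 whose intervals crossed 0.

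In Gcg/Ppy-led cells 2 of 5 genes passed 1.5-fold, against 7.17% of all genes. H1f0 had 170 CPM in HAMSAB and 103 CPM in HAMS (log2 0.73, 0.07 to 1.39), and Hist1h1c had 111 CPM in HAMSAB and 71.6 CPM in HAMS from 26 and 30 UMIs, with an interval that reached below 0 (0.63, -0.19 to 1.44). The Hist1h1c ratio was under 1.5-fold in thinned cells (0.41) and without cycling cells (0.58). Hist1h1d was rare there, with 2 UMIs in HAMSAB and 13 UMIs in HAMS. In that class summed beta markers were 1837 CPM in HAMSAB and 7981 CPM in HAMS and summed delta markers 2515 CPM in HAMSAB and 7537 CPM in HAMS, and their part in these ratios was not tested.

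H1f0, the replacement H1, was also higher in HAMSAB in several immune classes, at low counts. In T-like cells it had 41 UMIs in HAMSAB and 11 UMIs in HAMS, or 56.0 CPM in HAMSAB and 26.9 CPM in HAMS (log2 1.06, 0.07 to 2.17). In Il1r2-led cells it had 40 UMIs in HAMSAB and 11 UMIs in HAMS, or 66.5 CPM in HAMSAB and 23.5 CPM in HAMS (2.83-fold, log2 interval 0.51 to 2.61), the sixth highest ratio of 2460 genes. Of all genes, 9.43% in T-like and 8.9% in Il1r2-led cells were at least 1.5-fold higher. In cDC-like cells, named for conventional dendritic cells, it had 21 UMIs in HAMSAB and 2 UMIs in HAMS, a 7.14-fold ratio with a log2 interval of 0.80 to 5.97. That HAMS level of 14.3 CPM lay below the 21.5 CPM that 3 counts would give, and the log2 ratio of 2.83 was 1.19 from 52 UMIs at Leiden resolution 2 and 1.58 from 37 UMIs with cells classed by their own markers. Macrophage-like cells had 26 UMIs in HAMSAB and 11 UMIs in HAMS (log2 0.85, -0.22 to 2.01, and -1.56 from 4 UMIs in cells with at least 500 genes) and ductal-like cells 34 UMIs in HAMSAB and 10 UMIs in HAMS (0.57, -0.48 to 1.75). B-like cells, with 23.0 CPM in HAMSAB and 22.6 CPM in HAMS, had no detectable difference at this depth, and plasma-like cells had 16 UMIs in HAMSAB and 8 UMIs in HAMS (-0.84, -2.14 to 0.60). Over the 10 classes with at least 20 UMIs, H1f0 was above 0 in 9, with an interval above 0 in 5. The 9 include B-like cells at 0.03 (-1.51 to 1.84). Among these 9, the lowest value under the alternatives was below 0 in T-like (-2.97), macrophage-like (-1.56), B-like (-0.58) and ductal-like cells (-0.17). The share of all genes above 0 in as many classes was not computed. The T-like value depended on the clustering: at Leiden resolution 2, where a cluster of T marker genes stayed unnamed, the T-like cells kept 8 UMIs of H1f0 and the log2 ratio was -2.97. In T-like cells with at least 500 genes it was 0.42 from 27 UMIs.

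Hist1h1c went the other way in T-like cells. It had 40 UMIs in 699 HAMSAB cells and 38 UMIs in 315 HAMS cells, or 54.7 CPM in HAMSAB and 93.0 CPM in HAMS, with a log2 ratio of -0.77 (-1.44 to -0.09). This was the 1 call below 0, against 6.14% of all genes in that class. At 500 UMIs per cell the gene was in 2.92% of HAMSAB and 3.41% of HAMS cells, with intervals that overlapped. The log2 ratio was under 1.5-fold in thinned cells (-0.14), at Leiden resolution 2 (-0.25) and with cells classed by their own markers (-0.48). B-like cells had 42 UMIs in HAMSAB and 7 UMIs in HAMS (1.03, -0.14 to 2.43), and their counts were under the minimum of 50. Hist1h1e had 123 CPM in HAMSAB and 139 CPM in HAMS in T-like cells (-0.18, -0.68 to 0.32) and 111 CPM in HAMSAB and 86.0 CPM in HAMS in B-like cells (0.36, -0.38 to 1.18), within counting error in both. The B-like value depended on the cells taken: it was 1.36 without the top 5% of cells by UMIs, 2.11 in thinned cells and 2.39, from 18 UMIs in HAMSAB and 1 UMI in HAMS, without cycling cells.

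H3f3b was the gene that differed most widely. Its log2 ratio lay above 0 in 12 of 12 classes, with a median of 0.53 and a range of 0.11 in endothelial-like to 0.79 in pDC-like (plasmacytoid dendritic) cells, and its interval excluded 0 in 11; the endothelial-like value was below 0 when each cell was weighted equally (-0.12) or cycling cells were left out (-0.07). Among the 47 genes with at least 50 UMIs in every class 3 (6.38%) were above 0 in all 12, namely H3f3b, the nuclear long noncoding RNA Malat1 with a median of 0.49 and the ribosomal protein gene Rps25 with a median of 0.17. The 6 classes past 1.5-fold were delta-like, B-like, plasma-like, macrophage-like, cDC-like and pDC-like. Shares of all genes past 1.5-fold were 12.5% in B-like, 19.5% in plasma-like, 8.15% in macrophage-like, 8.7% in cDC-like and 17.5% in pDC-like cells, so a call in plasma-like or pDC-like cells, where few genes were measured, stood out less. The B-like ratio stayed past 1.5-fold under all 9 alternatives, from 0.64 to 0.73. The plasma-like ratio was under it with each cell weighted equally (0.54), the macrophage-like ratio with equal weights (0.54), without cycling cells (0.57) and with cells classed by their own markers (0.58), the cDC-like ratio at Leiden resolution 2 (0.48), when histone genes entered the clustering (0.54) and with cells classed by their own markers (0.55), and the pDC-like ratio with cells classed by their own markers (0.40). In macrophage-like cells with at least 500 genes it was 1.30 from 191 UMIs. Islet cell markers differed in these classes as well. In pDC-like cells summed beta markers were 678 CPM in HAMSAB and 6046 CPM in HAMS and alpha markers 1633 CPM in HAMSAB and 117 CPM in HAMS. In plasma-like cells alpha markers were 7642 CPM in HAMSAB and 537 CPM in HAMS and delta markers 396 CPM in HAMSAB and 14159 CPM in HAMS. Their part in the H3f3b ratios was not tested. No histone gene of the 7 was called in ductal-like or endothelial-like cells, where 14.4% and 9.7% of all genes were.

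B-like cells had 1226 CPM of H3f3b in HAMSAB and 746 CPM in HAMS (log2 0.72, 0.47 to 0.97). Macrophage-like cells had 2381 CPM in HAMSAB and 1540 CPM in HAMS (0.63, 0.46 to 0.80), and cDC-like cells 1559 CPM in HAMSAB and 1018 CPM in HAMS (0.61, 0.33 to 0.91). T-like cells at 1321 CPM in HAMSAB and 996 CPM in HAMS (0.41, 0.24 to 0.58) and Il1r2-led cells at 1941 CPM in HAMSAB and 1427 CPM in HAMS (0.44, 0.31 to 0.58) stayed under 1.5-fold. The smallest ratios beside the endothelial-like one were in the other endocrine classes, 0.20 (0.07 to 0.33) in beta-like and 0.31 (0.10 to 0.51) in Gcg/Ppy-led cells. Within the 2 beta-like clusters the ratio was 0.17 and 0.16, and both intervals crossed 0. Ductal-like cells, where H3f3b was abundant, had 3026 CPM in HAMSAB and 2234 CPM in HAMS (0.44, 0.19 to 0.69).

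H3f3a, which encodes the same H3.3 protein, was within counting error in each class. Its ratios ran from -0.66 in endothelial-like cells, from 25 UMIs, to 0.22 in macrophage-like cells, the median was 0.03 and no interval excluded 0. The share of H3f3b among H3.3 transcripts uses no class total, so the counts of other genes do not enter it. H3.3 transcripts from other cell classes can still enter it, and their part was not tested. It uses the same H3f3b counts as the ratios above and is not independent of them. That share was higher in HAMSAB in 12 of 12 classes, and in 10 of 11 when cells were classed by their own markers. It was 82.7% in HAMSAB and 78.5% in HAMS beta-like cells, 70.1% in HAMSAB and 64.0% in HAMS T-like cells, and 67.8% in HAMSAB and 54.4% in HAMS cDC-like cells. As an odds ratio of H3f3b over H3f3a, HAMSAB over HAMS, the values ran from 1.20 in ductal-like to 2.03 in pDC-like cells, with intervals above 1 in 6 classes: beta-like (1.31, 1.06 to 1.61), T-like (1.32, 1.07 to 1.61), B-like (1.42, 1.11 to 1.81), macrophage-like (1.33, 1.08 to 1.64), cDC-like (1.76, 1.28 to 2.44) and Il1r2-led (1.33, 1.13 to 1.56).

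**Figure D3:**
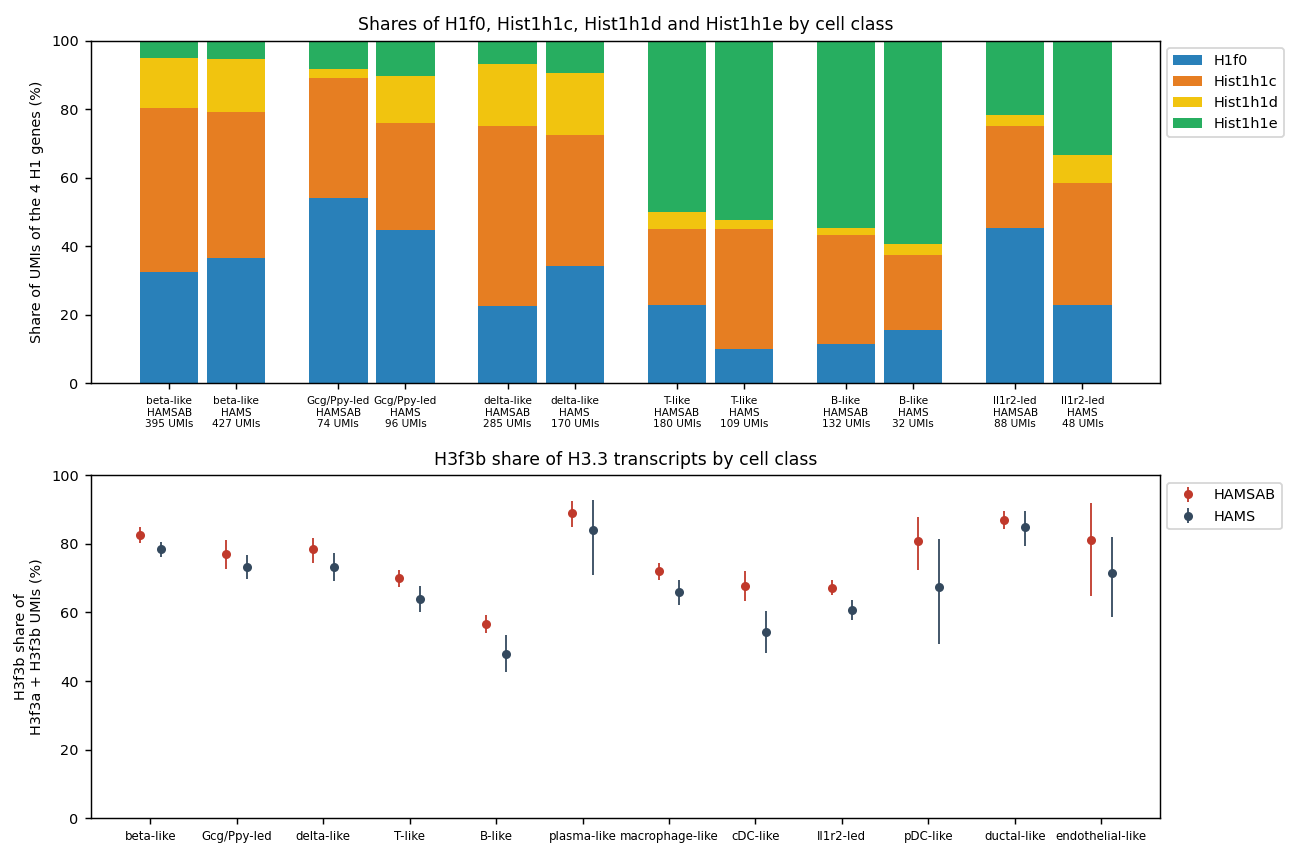
Upper bars give the share of each H1 gene among the summed UMIs of the 4 H1 genes, with the sum under each bar, for 6 classes; lower points give the share of H3f3b among H3f3a and H3f3b UMIs with exact 95% intervals for 12 classes, HAMSAB left of HAMS. Hist1h1e makes up 54.5% of the UMIs of these 4 genes in HAMSAB and 59.4% in HAMS B-like cells and under 11% in the endocrine classes, and the H3f3b share is higher in HAMSAB in 12 of 12 classes.

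H2afz, which encodes H2A.Z, had no class past 1.5-fold among the 8 with at least 50 UMIs. In T-like cells it had 880 CPM in HAMSAB and 927 CPM in HAMS (-0.08, -0.26 to 0.11), and in Il1r2-led cells 804 CPM in HAMSAB and 709 CPM in HAMS (0.18, -0.02 to 0.39). None of its intervals excluded 0 in a class with at least 20 UMIs. Endothelial-like cells, under that minimum, had 10 UMIs in HAMSAB and 4 UMIs in HAMS, a log2 ratio of 2.02 (0.23 to 4.15). At similarly low counts pDC-like cells had 6 UMIs in HAMSAB and 9 UMIs in HAMS (-1.52, -3.29 to 0.14). Plasma-like cells had 24 UMIs in HAMSAB and 3 UMIs in HAMS (1.16, -0.56 to 3.54), and ductal-like cells 23 UMIs in HAMSAB and 6 UMIs in HAMS (0.74, -0.60 to 2.33).

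Levels differed widely between cell classes. Both libraries gave the same side for each gene when the 3 endocrine classes were set against the 7 immune classes. H1f0 was 3.10-fold higher in endocrine than in immune cells of the HAMSAB library and 4.37-fold higher in the HAMS library. For Hist1h1c this ratio was 5.08-fold in HAMSAB and 2.75-fold in HAMS, and for Hist1h1d 10.1-fold in HAMSAB and 8.33-fold in HAMS, the steepest of the 7. For Hist1h1d it came from delta-like and beta-like cells: Gcg/Ppy-led cells had 8.52 CPM in HAMSAB, under the 9.02 CPM of the pooled immune cells, and 31.0 CPM in HAMS, above the 7.08 CPM of the pooled immune cells, and plasma-like cells had 82.0 CPM from 6 UMIs in HAMSAB. H2afz ran the opposite way, 4.24-fold higher in immune than in endocrine cells in HAMSAB and 3.89-fold in HAMS, as did H3f3a (2.48-fold in HAMSAB and 2.33-fold in HAMS), Hist1h1e (1.94-fold in HAMSAB and 2.48-fold in HAMS) and, by little, H3f3b (1.27-fold in HAMSAB and 1.13-fold in HAMS). For H2afz the lowest immune classes, pDC-like in HAMSAB (185 CPM from 6 UMIs) and plasma-like in HAMS (146 CPM from 3 UMIs), lay under the highest endocrine class. That class had 205 CPM in HAMSAB and 203 CPM in HAMS. The Hist1h1e side did not hold for each immune class. In HAMSAB it had 5.47 CPM in macrophage-like, 14.6 CPM in cDC-like and 0 CPM in pDC-like cells, under the lowest endocrine class at 25.6 CPM. Delta-like cells had 78.9 CPM there, above the 71.8 CPM of the pooled immune cells. In HAMS the Hist1h1e and H3f3b sides turned under 1 alternative each, at a log2 ratio of endocrine over immune of 0.24 for Hist1h1e without cycling cells (-0.04 in HAMSAB) and 0.11 for H3f3b in cells with at least 500 genes.

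**Figure D4:**
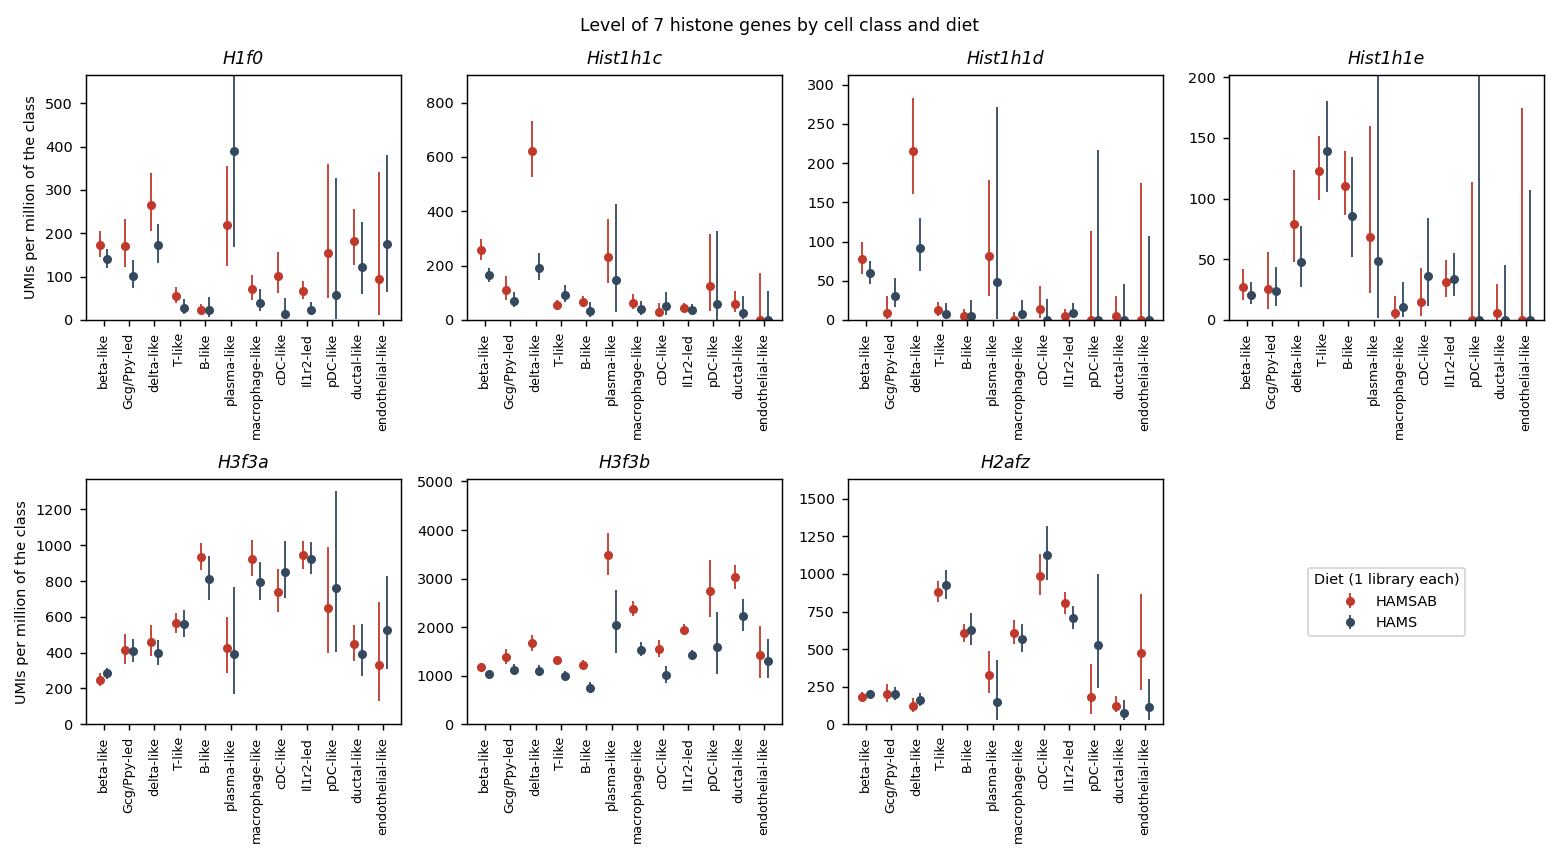
CPM of the class for each gene in 12 cell classes, HAMSAB left of HAMS, with exact 95% Poisson intervals for counting error (some run past the axis). Hist1h1c and Hist1h1d peak in delta-like cells at 623 and 216 CPM in HAMSAB, while H2afz is highest in cDC-like cells at 989 CPM in HAMSAB and 1126 CPM in HAMS.

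Delta-like cells had the most Hist1h1c and Hist1h1d in each, and in HAMSAB the Hist1h1c level stood clear of the next class, beta-like, while in HAMS these 2 classes had overlapping intervals. Endothelial-like cells had no UMI of Hist1h1c, and 3 counts there would be 142 CPM in HAMSAB and 87.3 CPM in HAMS, with exact 95% upper bounds of 174 CPM in HAMSAB and 107 CPM in HAMS. Among the 12 classes T-like and then B-like cells led for Hist1h1e, with overlapping intervals. For H1f0 the highest classes were delta-like (266 CPM) in HAMSAB and plasma-like (391 CPM from 8 UMIs) in HAMS, and the intervals of neighbouring classes overlapped down the order except between T-like and B-like cells in HAMSAB. H3f3b was highest in plasma-like (3486 CPM) and ductal-like (3026 CPM) cells in HAMSAB and in ductal-like (2234 CPM) and plasma-like (2051 CPM) cells in HAMS. Beta-like cells had the least H3f3a in both, 249 CPM in HAMSAB and 284 CPM in HAMS.

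The shares of the 4 H1 genes followed differed between lineages. In T-like cells Hist1h1e gave 90 of the 180 UMIs of these 4 genes in HAMSAB and 52.3% of them in HAMS, and in B-like cells 54.5% in HAMSAB and 59.4% in HAMS. In beta-like cells it gave 5.06% in HAMSAB and 5.39% in HAMS, and Hist1h1c led with 48.1% in HAMSAB and 42.6% in HAMS. Delta-like cells had 52.6% Hist1h1c (exact interval 46.7 to 58.6) in HAMSAB against 38.2% (30.9 to 46.0) in HAMS. These shares leave out other H1 genes, and Hist1h1b, which encodes H1.5, had more UMIs than the 4 together in both lymphocyte classes. T-like cells had 295 UMIs of Hist1h1b in HAMSAB and 190 in HAMS, and B-like cells 174 in HAMSAB and 83 in HAMS. With Hist1h1b, Hist1h1a and H1fx added, Hist1h1e was 18.6% of H1 UMIs in HAMSAB and 18.9% in HAMS T-like cells, and 21.1% in HAMSAB and 15.7% in HAMS B-like cells. In beta-like cells it was then 4.72% in HAMSAB and 4.81% in HAMS.

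Dividing lymphocytes were common in these islets. By the criterion of 2 UMIs of the mitotic genes, 39.2% of HAMSAB and 48.9% of HAMS T-like cells were cycling, as were 35.4% of HAMSAB and 39.7% of HAMS B-like cells, beside 2.17% of HAMSAB and 0.512% of HAMS beta-like cells. The criterion favours deep cells: cycling T-like cells had a median of 1270.5 UMIs in HAMSAB and 1462.5 in HAMS, the other T-like cells 632 and 715. In HAMSAB B-like cells Hist1h1e had 154 CPM in cycling cells and 59.8 CPM in the others (log2 1.37, 0.58 to 2.23), Hist1h1c 91.5 CPM in cycling and 33.2 CPM in the other cells (1.46, 0.40 to 2.65) and H2afz 844 CPM in cycling and 332 CPM in the other cells (1.35, 1.01 to 1.69). The core histone genes together had 169 CPM in cycling and 89.6 CPM in the other cells (0.91, 0.23 to 1.63). In HAMS B-like cells Hist1h1e had 18 UMIs in cycling cells and 1 in the others, and H2afz had 764 CPM in cycling and 412 CPM in the other cells (0.89, 0.33 to 1.48). T-like cells had smaller steps for H2afz, 0.33 (0.09 to 0.56) in HAMSAB and 0.35 (0.03 to 0.69) in HAMS, and Hist1h1e was at 0.64 (-0.01 to 1.33) in HAMSAB and 1.07 (0.10 to 2.17) in HAMS. H3f3b, whose transcription is not tied to replication, did not differ between cycling and other cells beyond counting error in either class or library. Its diet ratio was alike in both kinds of cell, 0.71 in cycling and 0.71 in the other B-like cells, and 0.48 in cycling and 0.31 in the other T-like cells, each with an interval above 0.

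**Figure D5:**
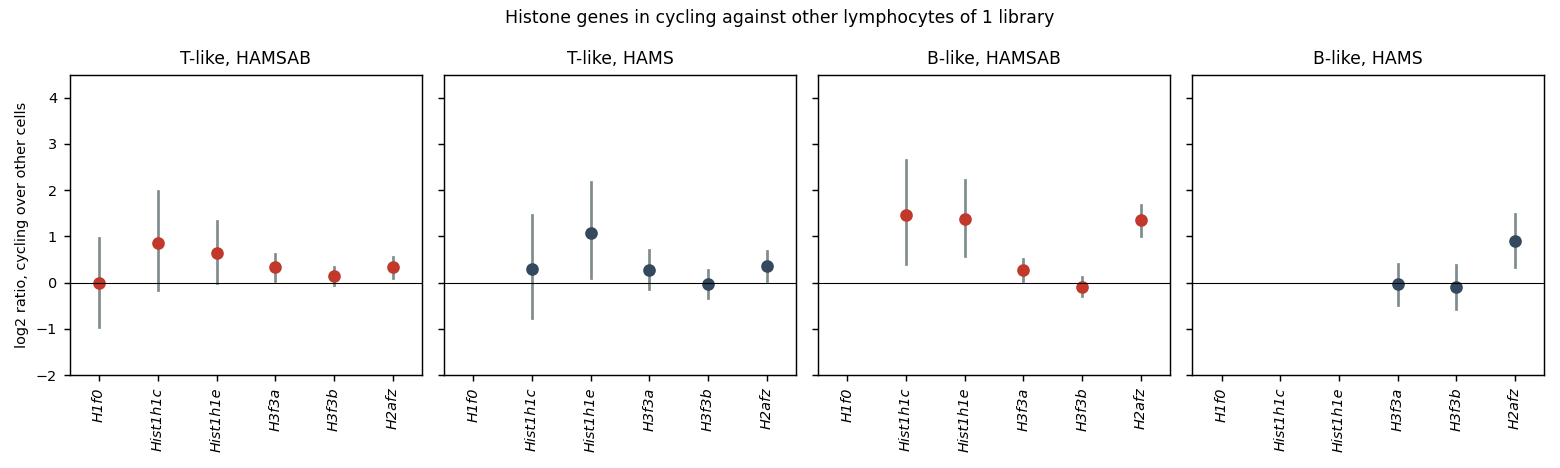
Log2 ratio of the level in cycling over other cells for 6 histone genes in T-like and B-like cells, HAMSAB left of HAMS within each class, with exact 95% intervals for counting error; genes with under 20 UMIs in a panel are left out. H2afz lies above 0 in all 4 panels, and the intervals of H3f3b cross 0 in all 4.

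Counted gene by gene, related genes showed no common shift. Over 6 lists of chromatin genes, cell cycle genes and genes known to respond to deacetylase inhibition, 245 gene and class pairs had at least 50 UMIs. Of these 15 were at least 1.5-fold higher in HAMSAB and 15 at least 1.5-fold lower, and 132 lay above 0. Of 16 other linker and variant histone genes 15 were in the matrices, and 0 of their 25 pairs passed 1.5-fold in either direction. The replication-dependent H1 gene Hist1h1b had 267 CPM in HAMSAB and 375 CPM in HAMS B-like cells (-0.49, -0.88 to -0.10), the H2A variant gene H2afy had 882 CPM in HAMSAB and 1076 CPM in HAMS Gcg/Ppy-led cells (-0.29, -0.53 to -0.05), and Hp1bp3, an H1-related protein gene, had 56.9 CPM in HAMSAB and 82.9 CPM in HAMS beta-like cells (-0.54, -1.11 to -0.00). Of the 59 core histone genes, 2 were measured in beta-like cells, both above 0 and neither past 1.5-fold, and none in the other classes. Summed over all 59, they had 202 CPM in HAMSAB and 112 CPM in HAMS beta-like cells, a difference that was not tested. The sum was lower in HAMSAB in Gcg/Ppy-led, T-like, plasma-like, pDC-like and ductal-like cells.

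Histone chaperones and remodellers, 31 genes, had 133 pairs, of which 9 were higher and 10 lower. Their median log2 ratio was -0.03 over 22 genes in T-like cells, -0.01 over 19 in B-like cells, -0.09 over 19 in beta-like cells and 0.08 over 13 in delta-like cells, and it was above this in cDC-like (0.30 over 10), Il1r2-led (0.25 over 14) and macrophage-like cells (0.19 over 11). Among the named genes, Srcap and Ep400, remodelling ATPases linked to H2A.Z and H3.3 deposition, were higher at 1.08 (0.23 to 2.05) in B-like and 1.65 (0.55 to 2.95) in T-like cells, while Znhit1, a subunit of the SRCAP complex, was lower at -0.97 (-1.70 to -0.23) in B-like and -0.98 (-1.76 to -0.21) in T-like cells. Set, a histone chaperone and inhibitor of acetylation, was among the lowest of the list in 6 classes, from -0.17 in Il1r2-led to -0.91 in endothelial-like cells, with intervals below 0. Atrx, the partner of the H3.3 chaperone Daxx, was at 0.44 (0.14 to 0.76) in B-like and 0.49 (0.17 to 0.82) in Il1r2-led cells, under 1.5-fold. Ptma, encoding prothymosin alpha, which binds H1, was at 0.38 (0.28 to 0.48) in macrophage-like and 0.48 (0.31 to 0.65) in cDC-like cells and at -0.22 (-0.36 to -0.09) in Gcg/Ppy-led cells.

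The 10 genes of histone message processing and histone gene transcription had 16 pairs, of which 1, in Il1r2-led cells, was higher and none lower. The 21 genes of S phase and division had 61 pairs, 4 of them higher and 5 lower, with medians of -0.07 in T-like and -0.06 in B-like cells over 19 genes each. In cDC-like cells 2 of the 3 measured were higher, with Top2a at 1.57 (0.60 to 2.66), and cycling cells were 14.0% of HAMSAB and 5.26% of HAMS cells of that class. In beta-like cells Top2a was at 1.66 (0.86 to 2.50) from 42 UMIs in HAMSAB and 20 UMIs in HAMS, while Tubb5 was at -0.36 (-0.51 to -0.21).

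Cdkn1a and Gsn are known, like H1f0, to rise in cultured cells when histone deacetylases are inhibited. These 2 genes had 8 pairs with at least 50 UMIs, of which 1 was higher, 0 lower and 6 above 0. Cdkn1a was at 0.26 (-0.04 to 0.57) in Il1r2-led, 0.31 (-0.03 to 0.66) in macrophage-like and 0.54 (-0.04 to 1.14) in T-like cells. Gsn was at -0.15 (-0.49 to 0.19) in Il1r2-led cells. Cdkn1a had 175 CPM in HAMSAB and 107 CPM in HAMS Gcg/Ppy-led cells (0.70, 0.06 to 1.35), but 114 CPM in HAMSAB and 149 CPM in HAMS beta-like cells (-0.39, -0.78 to -0.00), and it was within counting error in delta-like cells from 15 and 22 UMIs (-0.07, -1.12 to 0.94). Gsn had 9 UMIs in HAMSAB and 38 UMIs in HAMS beta-like cells, a ratio of -1.49 (-2.73 to -0.42), and was near 0 in macrophage-like cells (0.00, -0.59 to 0.60). In ductal-like cells Cdkn1a had 31 UMIs in HAMSAB and 5 UMIs in HAMS (1.44, 0.06 to 3.16). The counts of Cdkn1a in delta-like and ductal-like cells and of Gsn in beta-like cells were under the minimum of 50 UMIs.

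The authors' deposited table for delta cells lists Hist1h1c with a log2 fold change of 1.18 at an adjusted p of 0.000242. The same deposited table lists H3f3b at 0.62 with an adjusted p of 0.525, and H3f3b is also in the authors' deposited tables for B cells (0.64, adjusted p 0.835), for the cells named cdc (0.33, adjusted p 0.606) and for those named mf (0.46, adjusted p 1). No histone gene of the 7 is in the authors' deposited tables for alpha, beta, pdc or T cells. Those p-values take cells as replicates. Each of the 8 tables holds only genes with an unadjusted p up to about 0.01 and an absolute log2 fold change of at least 0.20. Those for alpha, beta, delta and B cells name only HAMSAB as the diet. Absence from one says no more than that a gene was outside these ranges. The authors' cell groups and fold change scale differ from the classes and CPM ratios above.

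By profile over the 24 points of class and library, the genes most like H1f0 among 4876 compared were Zmynd11 (Pearson r of log2(CPM + 10) 0.86), Jund (0.85) and Rb1cc1 (0.84). Hist1h1c was most like Rpn2 (0.86), Ostc (0.86) and Ndufb11 (0.85), and Hist1h1d like Pdyn (0.88), Pigb (0.87) and Ahi1 (0.84). Hist1h1e was nearest to Pbdc1 (0.85), Nusap1 (0.83) and Nop56 (0.81). For H3f3a these were Dock10 (0.90), Actr2 (0.89) and Dusp2 (0.88), and for H2afz Zfc3h1, Capzb and Dock2 (all 0.86). H3f3b had no close match, with Tmbim6 at 0.69, B2m at 0.67 and Ly6a at 0.63. The points share libraries, depth and class totals, so these values are a description.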

How the data were processed

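Per the file headers, the authors' UMI counts come from Cell Ranger 5.0.0, and per the submitters' processing notes from mm10 (GRCm38), with Seurat also named. The deposited tables of the authors give a log2 fold change and p-values, and 16 columns of shares of cells in them were not used. Which test was used is not given in the sources used here. Doublet removal is not stated, and none was called here beyond leaving out the top 5% of cells by UMIs as an alternative.

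Cells needed 200 genes or more and no more than 20% of UMIs from mitochondrial genes, which removed 391 HAMSAB and 165 HAMS cells for genes and 3 and 2 for mitochondrial UMIs. With scanpy 1.11.5, all 86 histone genes were left out, counts were scaled to 10000 per cell, and 2000 variable genes, 30 components, 15 neighbours and Leiden clustering at resolution 1 were used. A cluster took the class of its highest marker score if at least 3 markers were seen in at least 5% of cells and its own markers were no fewer than those of any other class among its 10 leading genes. After the clusters were seen, at least 1 own marker among the 10 was also required, which left the Il1r2-led cluster unnamed. An acinar-like cluster of 9 HAMSAB cells was left out. Because clusters were rebuilt, names may differ from those of the authors.

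UMIs were summed per class and library. Intervals are exact at 95% (Poisson, conditional binomial, Clopper-Pearson) and cover counting error, not mice. Only the ratio intervals were tried on simulated data, with Poisson counts for delta-like, beta-like and T-like cells. Such counts follow the model of the intervals and lack extra spread between cells. The trial therefore cannot show whether coverage in the real data is 95%. Genes named from the related lists are up to 2 highest and 2 lowest per class by the interval bound nearest 0. Tools were chosen for 1 library per diet, so no differential test was run. The genes, lists, markers and alternatives were chosen with earlier results of these data known.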

Additional observations from a re-analysis of the deposited data

Results flagged for a closer look

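Hist1h1c in T-like cells had a log2 ratio of -0.77 (HAMSAB over HAMS), while in beta-like and delta-like cells its intervals lay above 0. It was picked out because the classes moved in opposite directions; the difference between them was not tested, and each side is 1 library. The value rests on 40 UMIs in HAMSAB and 38 UMIs in HAMS.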

How the results depend on the processing

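The count of gene and class pairs at least 1.5-fold higher in HAMSAB (14) was 9 with at least 500 genes per cell, 7 with cells thinned to 500 UMIs, 9 without cycling cells, 4 at a fold of 2 and 22 at a minimum of 20 UMIs, and 10 to 13 under the other alternatives. The count at least 1.5-fold lower (1) was 0 with at least 500 genes per cell, at Leiden resolution 2, with cells classed by their own markers, with thinned cells, without cycling cells and at a fold of 2, and 3 at a minimum of 20 UMIs. Fewer UMIs pass the minimum when cells are thinned or left out: thinning left out 1056 HAMSAB and 1045 HAMS cells, and the 500-gene minimum 3255 HAMSAB and 2973 HAMS cells. Of the related lists, 15 gene and class pairs were at least 1.5-fold higher, 30 with cells classed by their own markers, 6 at a fold of 2 and 51 at 20 UMIs; the cause for the 30 was not tested.

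Of 505 recomputed ratios 484 stayed within their 95% interval and 21 lay outside it. The sign changed in 43, of which 35 stayed within their interval and 8 lay outside it. Among pairs with at least 50 UMIs, 1 of these 43 was of a ratio past 1.5-fold (H1f0 in T-like cells at Leiden resolution 2, -2.97). Ratios past 1.5-fold from fewer UMIs also changed sign, such as H1f0 in macrophage-like cells (0.85, and -1.56 with at least 500 genes). Hist1h1c in delta-like cells ran from 1.53 to 1.90, Hist1h1d there from 0.84 to 2.37, H1f0 there from 0.36 to 1.20 and in Il1r2-led cells from 1.05 to 1.51, Hist1h1c in beta-like cells from 0.34 to 0.65 and in T-like cells from -1.10 to -0.14. Of 126 endocrine over immune ratios 104 stayed within their interval, 20 moved and 2 reversed (0.24 for Hist1h1e in HAMS without cycling cells and 0.11 for H3f3b in HAMS with at least 500 genes). No paired analysis was possible because each diet has 1 library. Leaving out a library was not possible for the same reason. At these depths 42 of the 84 pairs reached 50 UMIs.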
